A study of Homo sapiens with 12 samples.

Results

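The 43 genes described here act in the G2 phase of the cell cycle and in mitosis. They were chosen by gene name, with earlier results of these data known, and all 43 were found among the 58302 genes of the deposited table. They were followed in 12 RNA-seq libraries, 3 for each of 4 lines: the TPC1 cell line and its Dicer1 (+/-) clones, which are named D11, WB1 and TD5. TPC1 was derived from a papillary thyroid carcinoma and has wild-type Dicer1. Each clone was grown from a single TPC1 cell after cutting with CRISPR-Cas9 and a guide against exon 11 of Dicer1, which left a frameshift deletion with a premature stop in 1 allele and an intact second allele. All lines grew in RPMI medium with 10% fetal bovine serum and received no treatment. Each mutant line is thus 1 clone, and the labels do not say whether the 3 libraries of a line came from separate cultures, so the p-values given here measure the spread between these libraries, which may be technical.

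Cells in G2 check that DNA replication is complete and build up the machinery of division. The kinase CDK1 with its cyclin then starts mitosis, condensin and topoisomerase shape the chromosomes, kinetochores tie them to the spindle, and the spindle checkpoint holds back the anaphase-promoting complex until all chromosomes are attached. Transcription of these genes peaks late in the cycle. Many of their promoters carry a short element, the cell cycle genes homology region (CHR), which is bound by the MuvB complex: with E2F4 and a pocket protein MuvB keeps them silent in resting cells, and with B-MYB (MYBL2) and FOXM1 it drives them in G2. The summed mRNA of such genes is therefore widely used as a sign of proliferation in tumours, thyroid carcinomas included.

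The values are reads per gene scaled by the authors to 20000000 aligned reads per library, called scaled reads below. The reads behind them were 12700000 to 21020000 per library, estimated from the steps between whole numbers. For TPC1 replicate 1, the highest of these, a likelihood fit to the values was used instead. By these estimates 3 reads were worth 2.85 to 4.72 scaled reads, a floor that covers counting error only. Members ranged from 338 to 13306 scaled reads, far over this floor in every library. DICER1 itself had 1101 to 1360 scaled reads in TPC1, 977 to 1093 in D11, 815 to 939 in WB1 and 627 to 809 in TD5, so that all 9 clone libraries were below all TPC1 libraries. Against TPC1 its log2 fold changes were -0.19, -0.43 and -0.77 for D11, WB1 and TD5 (limma, adjusted p = 0.138, 0.00404 and 9.02e-05). Among thyroid follicular markers, the transcription factor PAX8 had 7248 to 9879 scaled reads, while SLC5A5, NKX2-1 and TSHR were at 0 in every library. Endothelial markers summed to at most 9 scaled reads and fibroblast markers to at most 367. Leukocyte markers summed to 925 to 1154 scaled reads in TPC1, 981 to 1130 in D11, 1253 to 1518 in WB1 and 1211 to 1364 in TD5, nearly all from CD68, a lysosomal protein, while CD3E was at 0 and PTPRC at most 3. CD68 was higher in WB1 than in TPC1 by 0.42 on the log2 scale, and its part in the results was not tested. Mitochondrially encoded genes took 1.33% to 2.22% of a library, more in the clones than in TPC1.

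The 43 genes together took 0.665%, 0.565% and 0.635% of the TPC1 libraries. Their share was 0.645%, 0.710% and 0.651% for D11, 0.837%, 0.721% and 0.687% for WB1 and 0.690%, 0.746% and 0.760% for TD5. All WB1 and TD5 libraries were above the highest TPC1 library, whereas D11 overlapped with TPC1. TPC1 had a mean share of 0.621% ± 0.0515 (SD, n = 3), of which D11, WB1 and TD5 reached 107.6%, 120.5% and 117.7% on average. These sums are dominated by the most abundant members and were not tested. In RNA from a whole culture, a larger share of cells in G2 or mitosis and more of these mRNAs per cell cannot be told apart.

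Libraries of a line differed from one another in the same direction across the list. TPC1 replicate 2 was the lowest TPC1 library for 41 of the 43 genes, and WB1 replicate 1 was the highest WB1 library for 38. D11 replicate 2 was the highest of its line for 31 members and TD5 replicate 1 the lowest of its line for 28. Counts that rest on these libraries are given below with and without them.

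**Figure D1:**
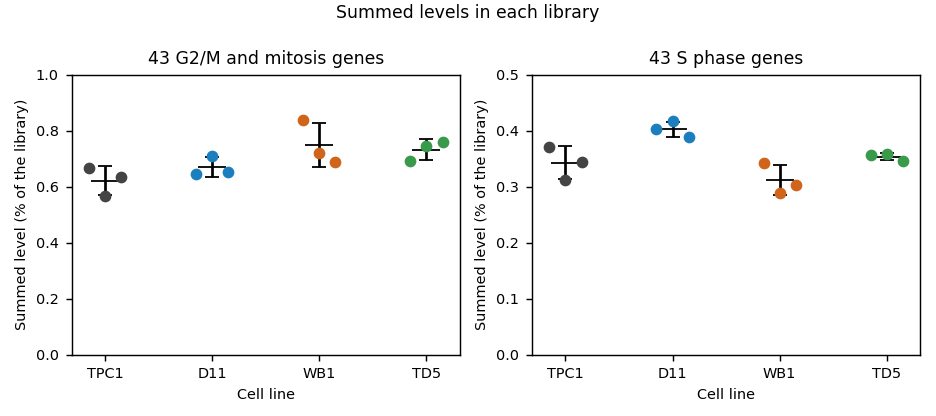
Summed level of the 43 G2/M and mitosis genes (left) and of 43 S phase genes (right) in each library, as a percentage of all scaled reads. Points are libraries in the order of their replicate numbers, and the bars show mean ± SD of the 3 libraries of a line. For the G2/M genes the WB1 and TD5 points lie above all TPC1 points, whereas for the S phase genes the D11 points are the highest.

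Against TPC1, more members were higher than lower in every clone, by small amounts. Each gene was tested with limma on log2 values per 1000000, and p-values were adjusted over all 16027 genes tested, which included all 43 members. A gene past an adjusted p of 0.05 is said below to have passed the test, and one that also changed at least 1.5-fold is said to have been called. In WB1, 25 of the 43 genes were higher and 0 lower, where 18.6% of all genes tested were higher and 12.3% lower. In TD5, 18 were higher and 0 lower, beside 5.32% and 6.57% of all genes. In D11, 13 were higher and 2 lower, beside 19.9% and 13.4% of all genes. At an unadjusted p under 0.05, 1 member was lower in WB1 and 0 in TD5, and voom on the estimated reads gave 0 lower members in both. The exception under some alternatives was CDC20 in WB1, described with its values below. Members are well expressed, and among the 8437 genes with a mean at least that of the lowest member the share of higher genes was 19.2% in WB1, 5.97% in TD5 and 22.3% in D11. The median log2 fold change of the members was 0.31 in WB1, 0.27 in TD5 and 0.12 in D11, where that of all genes tested was 0.06, 0.00 and 0.05.

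Few of these differences were large. NEK2, NUF2 and CKAP2L in WB1 were the called members, where 4.99% of all genes were called. In D11 and TD5 0 members were called, beside 4.84% and 2.6% of all genes, although 15 and 18 members passed the test on p. The log2 fold changes of the members ran from -0.25 to 0.60 in WB1, from -0.08 to 0.53 in TD5 and from -0.40 to 0.45 in D11.

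The counts depended on single libraries. For all genes tested, numbers past the test under such settings are given here and below only for the GC correction. In the other refits a change in the members and a change in the whole test cannot be told apart. Without TPC1 replicate 2, the number of higher members was 15 in WB1, 7 in TD5 and 4 in D11. Without WB1 replicate 1 it was 14 in WB1, and in both of these fits 0 members were called there, as with a pseudocount of 4, with scaling by median of ratios and after correction for GC content. Without WB1 replicate 3, 5 members were called in WB1. In TD5 the number was 11 without TPC1 replicate 3 or without TD5 replicate 3. In D11 it was 6 without TPC1 replicate 3, 3 without D11 replicate 2 and 4 without D11 replicate 3, and under scaling by median of ratios it was 6 higher and 2 lower. Without TD5 replicate 1, 15 members were higher in TD5. Without the filter on low values, 9 members were higher in TD5 and 4 in D11. Members that passed whichever library was left out were 14 in WB1 (BUB1, CENPA, CENPF, CKAP2, CKAP2L, CKS2, DLGAP5, GTSE1, KIF23, NEK2, NUF2, SMC4, TOP2A and TTK), 6 in TD5 (BUB1, CENPA, CKAP2L, GTSE1, NEK2 and TMPO) and 4 in D11 (CDC20, CKAP2L, SMC4 and TMPO).

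**Figure D2:**
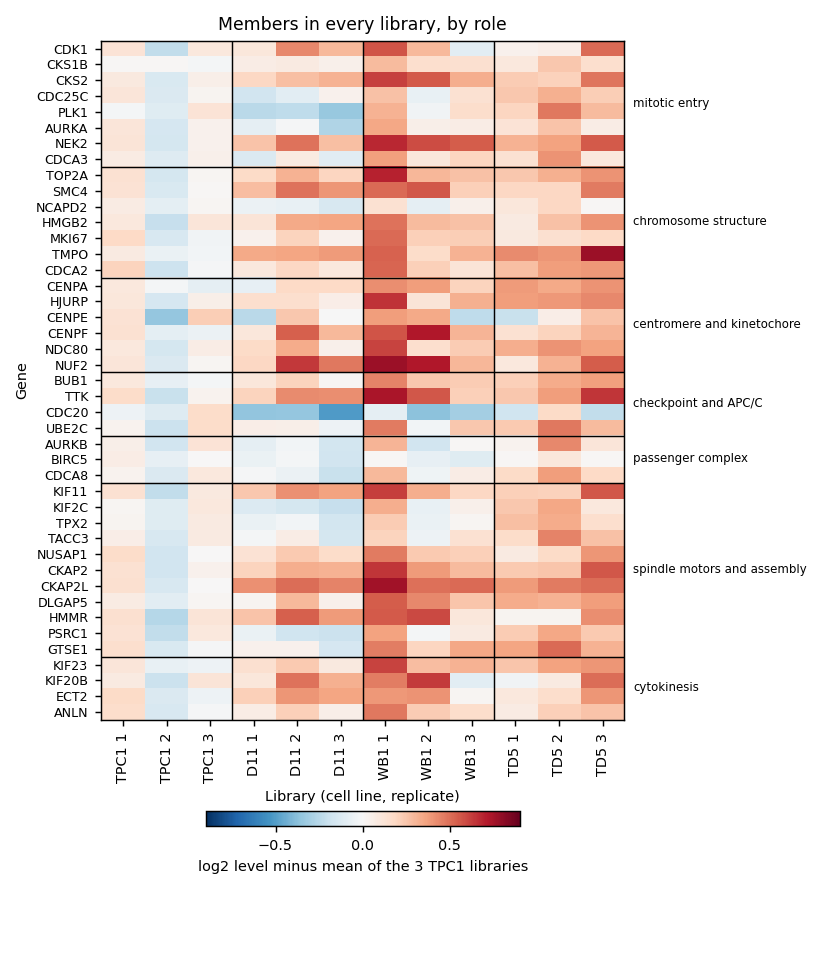
Level of each member in each library, as log2(value per 1000000 + 1) minus the mean of the 3 TPC1 libraries (red is higher, blue lower), with genes grouped by role (APC/C is the anaphase-promoting complex). WB1 replicate 1 is red in nearly every row and TPC1 replicate 2 is pale to mid blue in nearly every row. CDC20 and PLK1 are blue in all 3 D11 libraries.

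The 3 comparisons with TPC1 share the TPC1 libraries, so their lists are not independent of one another. CKAP2, CKAP2L, CKS2, NEK2, TMPO and TTK were higher in all 3 clones, and 9 further members were higher in both WB1 and TD5 but did not pass in D11 (BUB1, CDCA2, CENPA, DLGAP5, GTSE1, HJURP, KIF23, NDC80 and TOP2A). CENPF, HMGB2, HMMR, KIF11, NUF2 and SMC4 passed in D11 and WB1 and not in TD5. ECT2 passed in D11 alone, ANLN, CKS1B, MKI67 and NUSAP1 in WB1 alone, and PLK1, TACC3 and TPX2 in TD5 alone. The remaining 14 members passed as higher in none of the clones. These were AURKA, AURKB, BIRC5, CDC20, CDC25C, CDCA3, CDCA8, CDK1, CENPE, KIF20B, KIF2C, NCAPD2, PSRC1 and UBE2C. How many of all genes tested passed in the same sets of clones was not counted. Of the 6 members higher in all 3 clones, CKAP2L alone passed in every clone whichever library was left out. It was also the only one still higher in D11 after the GC correction. All 9 clone libraries were above all 3 TPC1 libraries for 10 of the 43 members, where 5.2% of the genes tested had this pattern. The number was 2 after the GC correction and 21 without TPC1 replicate 1. The share of all genes tested under these settings is not given, and the 5.2% does not apply to them. Leaving out a TPC1 library makes the pattern easier to meet for every gene. The 10 members were CKS1B, CKS2, NEK2, TOP2A, SMC4, TMPO, TTK, KIF11, CKAP2 and CKAP2L. The opposite pattern, with all clone libraries below TPC1, was seen for 0 members and for 6.67% of the genes tested.

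**Figure D3:**
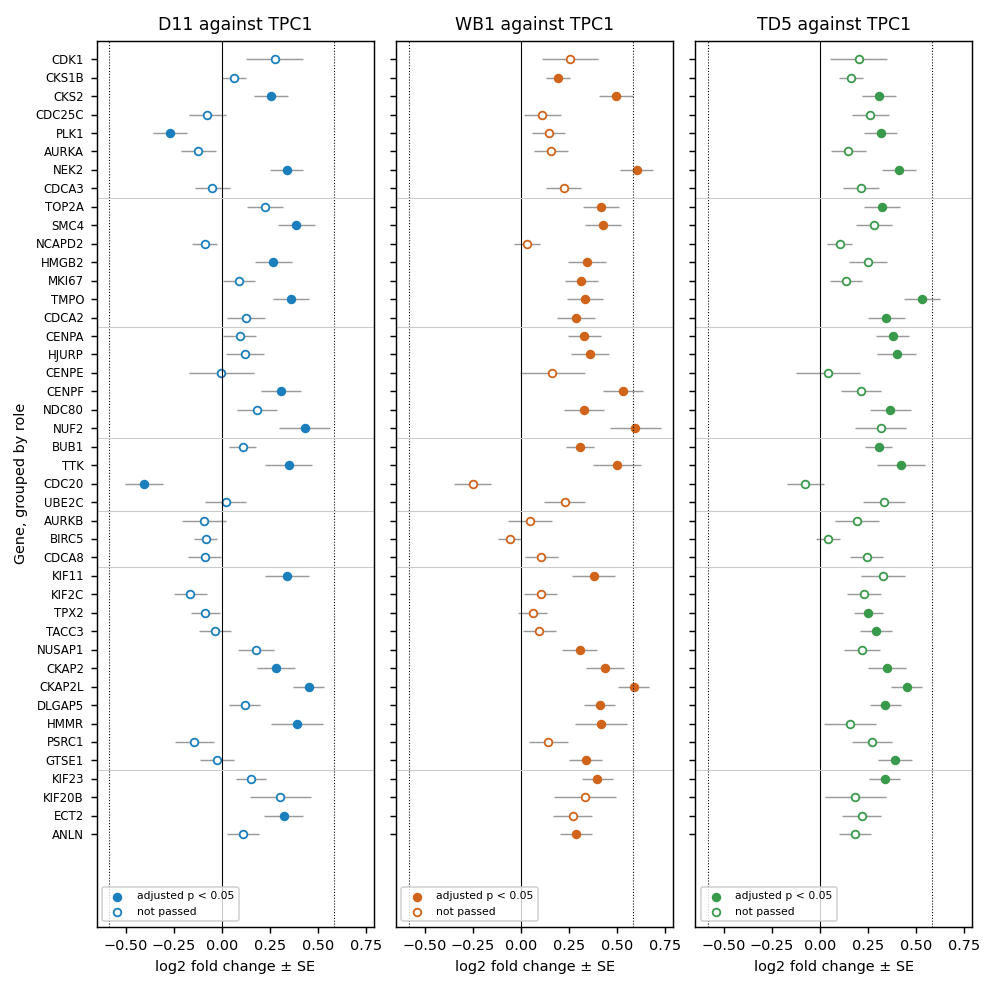
The log2 fold change of each member in D11, WB1 and TD5 against TPC1, with its standard error (bars). Filled points passed the test at an adjusted p under 0.05 (limma, over all genes tested), open points did not, and dotted lines mark 1.5-fold. Filled points are 25 in WB1 and 18 in TD5, all to the right of 0, and 15 in D11, of which CDC20 and PLK1 lie to the left.

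G2/M promoters are known for the CHR and for CCAAT boxes, and the sequences just before the start of 5 members were searched for both. RefSeq gives a promoter of 300 bases for 36 of the 43 members, 250 before and 50 after the start. AURKA, BIRC5, CDCA2, HMGB2, TPX2, TTK and UBE2C are not among them. For 6 members RefSeq gives more than 1 promoter, and a match in any of these was counted. Some RefSeq starts lie inside the gene as placed by Gencode, those of CKAP2 and PLK1 among them. The presence or absence of a match depends on the start used. The 110 bases before the start are printed for CKAP2L, CKS2 and NEK2, which were higher in all 3 clones, and for PLK1 and CDC20, which were lower in D11. They are written 5′ to 3′ on the strand of the gene, in build GRCh38.p14. Capitals mark the CHR core TTTGAA and the CCAAT box, on either strand (TTCAAA and ATTGG are their reverse complements).
CKAP2L, chr2:112764610-112764719, minus strand: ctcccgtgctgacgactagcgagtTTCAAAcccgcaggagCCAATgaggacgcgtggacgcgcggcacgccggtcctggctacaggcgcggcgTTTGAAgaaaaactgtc
CKS2, chr9:89311085-89311194, plus strand: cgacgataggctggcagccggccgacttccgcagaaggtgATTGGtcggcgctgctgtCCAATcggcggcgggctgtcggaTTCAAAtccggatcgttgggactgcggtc
NEK2, chr1:211675622-211675731, minus strand: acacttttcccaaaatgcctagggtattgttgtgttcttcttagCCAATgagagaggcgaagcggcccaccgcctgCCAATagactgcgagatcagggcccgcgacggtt
PLK1, chr16:23678779-23678888, plus strand: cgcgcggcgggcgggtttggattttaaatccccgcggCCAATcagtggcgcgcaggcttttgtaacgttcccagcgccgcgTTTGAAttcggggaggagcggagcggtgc
CDC20, chr1:43358871-43358980, plus strand: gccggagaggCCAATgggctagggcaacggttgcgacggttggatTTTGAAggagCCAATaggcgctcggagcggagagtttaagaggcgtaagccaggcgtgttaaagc

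In these windows PLK1 and CDC20 hold the same core and CCAAT letters as CKAP2L and CKS2, whereas that of NEK2 holds CCAAT boxes and no CHR core. CKAP2 and TMPO, also higher in all 3 clones, were not printed. Neither held TTTGAA over its 300 bases, and CKAP2 held no CCAAT. Over the whole 300 bases, 27 of 36 members (75%) held TTTGAA on either strand, as did 31 of 46 other mitosis genes (67.4%), 4 of 32 S phase genes (12.5%), 13.7% of the tested genes with a promoter and 18.2% of all promoters. CCAAT was found in 28 of 36 members (77.8%), in 24 of 32 S phase promoters (75%), in 42.9% of the tested genes and in 39.7% of all promoters. Both were present in 23 members (63.9%) and in 5.69% of the tested genes. The cores may overlap, as in TTTGAATTGG. The median log2 fold change of the 27 members with the CHR core was 0.15, 0.33 and 0.26 for D11, WB1 and TD5. In the 9 members without it in this window the medians were -0.00, 0.16 and 0.29. All clone libraries were above TPC1 for 6 of the 27 and 3 of the 9, beside 5.2% of all genes tested. A match of letters is not evidence of binding.

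The role groups hold 3 to 11 genes each, and their counts are to be read beside the 19.9%, 18.6% and 5.32% of all genes that were higher in D11, WB1 and TD5. After the GC correction described below, CKAP2L was the 1 higher member in D11, so that every other count of higher genes there became 0. Among the 8 genes of mitotic entry, NEK2 was the member that changed most. NEK2, a kinase that separates the centrosomes before mitosis (chromosome 1, 211658657 to 211675630 of GRCh38, minus strand), had 1113, 913 and 1054 scaled reads in the libraries of TPC1, 1225, 1444 and 1238 in those of D11, 1651, 1544 and 1503 in those of WB1 and 1278, 1324 and 1509 in those of TD5. Every clone library was above every TPC1 library, and the WB1 libraries were also above those of D11. The log2 fold change was 0.34 for D11 (SE 0.09, limma adjusted p = 0.0078), 0.60 for WB1 (adjusted p = 0.00013) and 0.41 for TD5 (adjusted p = 0.005). In WB1 this was 1.52-fold. CKS2, a small subunit that binds CDK1 and the most abundant of the group per kilobase of transcript, had 1394, 1188 and 1358 scaled reads in the libraries of TPC1, 1496, 1587 and 1631 in those of D11, 2014, 1928 and 1645 in those of WB1 and 1542, 1513 and 1836 in those of TD5. It rose in all 3 clones, by 0.26, 0.50 and 0.31 on the log2 scale (adjusted p = 0.034, 0.00075 and 0.032, limma). CKS1B, its paralog, passed in WB1 (log2 fold change 0.19, adjusted p = 0.026) and stood at 0.07 in D11 and 0.16 in TD5, without a difference that passed between TD5 and WB1.

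CDK1, AURKA and CDC25C did not pass against TPC1 in any clone. CDK1, which drives entry into mitosis, had 2121, 1670 and 2080 scaled reads in the libraries of TPC1, 2087, 2635 and 2389 in those of D11, 2894, 2387 and 1825 in those of WB1 and 1996, 2026 and 2779 in those of TD5. Each clone overlapped with TPC1, and the log2 fold changes of 0.28, 0.26 and 0.20 did not pass the test (adjusted p = 0.16, 0.19 and 0.41, limma). AURKA, which matures the centrosomes, had 3458, 2885 and 3298 scaled reads in the libraries of TPC1, 3028, 3178 and 2655 in those of D11, 4093, 3318 and 3362 in those of WB1 and 3484, 3838 and 3351 in those of TD5. All clones overlapped with TPC1 and 0 passed the test. CDC25C, the phosphatase that activates CDK1 and the member with the lowest level, had 414, 348 and 389 scaled reads in the libraries of TPC1, 338, 358 and 394 in those of D11, 463, 365 and 424 in those of WB1 and 457, 482 and 450 in those of TD5. It did not pass against TPC1 in any clone, although the TD5 libraries were above those of TPC1 (log2 fold change 0.26, adjusted p = 0.089). CDCA3, which helps to degrade the mitotic inhibitor WEE1, did not pass either.

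PLK1 moved in opposite directions in 2 clones. PLK1, a kinase needed from centrosome maturation to cytokinesis (chromosome 16, 23677656 to 23690367 of GRCh38, plus strand), had 3737, 3504 and 4120 scaled reads in the libraries of TPC1, 3195, 3227 and 2982 in those of D11, 4691, 3699 and 4223 in those of WB1 and 4318, 5251 and 4605 in those of TD5. The D11 libraries were below and the TD5 libraries above all those of TPC1, and WB1 overlapped with TPC1. The log2 fold change was -0.27 for D11 (SE 0.09, limma adjusted p = 0.025), 0.15 for WB1 (adjusted p = 0.2) and 0.32 for TD5 (adjusted p = 0.024). The gene did not pass in D11 without TPC1 replicate 3, without D11 replicate 3 or after the GC correction, and it did not pass in TD5 without TPC1 replicate 1, TPC1 replicate 2 or TD5 replicate 2. It passed in neither without the filter on low values or without the mean-variance trend, and it was higher in WB1 after the GC correction. A gene of the other strand with 766.1 scaled reads on average overlaps PLK1, and whether strand was used in counting is not stated in the sources used here.

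**Figure D4:**
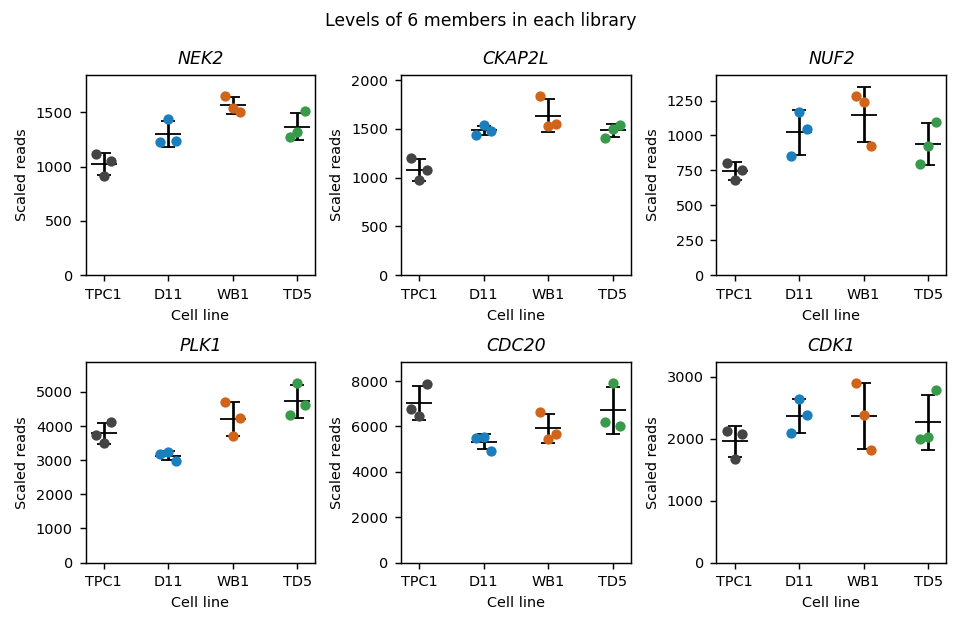
Scaled reads of NEK2, CKAP2L, NUF2, PLK1, CDC20 and CDK1 in each library, in panels whose axes start at 0 (points in the order of replicate numbers; bars show mean ± SD, n = 3). For NEK2 and CKAP2L all clone points lie above TPC1, for PLK1 and CDC20 the D11 points lie below TPC1, and for CDK1 each clone overlaps with TPC1.

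Of the 7 genes of chromosome structure, 3 rose in D11, 6 in WB1 and 3 in TD5. TOP2A, the topoisomerase that untangles sister chromatids, had 8365, 6794 and 7706 scaled reads in the libraries of TPC1, 8552, 9429 and 8687 in those of D11, 12264, 9334 and 9127 in those of WB1 and 8995, 9469 and 10045 in those of TD5. All clone libraries were above TPC1, and the gene passed the test in WB1 and TD5 (log2 fold change 0.42 and 0.32, adjusted p = 0.004 and 0.036, limma) but not in D11 (0.23, adjusted p = 0.076). SMC4, a core subunit of condensin, rose in D11 and WB1, by 0.39 and 0.43 (adjusted p = 0.0063 and 0.0035). NCAPD2, a subunit particular to condensin I, did not pass in any clone, with log2 fold changes of -0.09, 0.03 and 0.10. SMC4 transcripts hold 36.6% GC and those of NCAPD2 51.6%. The part of this difference in the contrast between these subunits was not tested.

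MKI67, which encodes the Ki-67 antigen that coats mitotic chromosomes and is used in pathology to count cycling cells, had 10563, 8445 and 9106 scaled reads in the libraries of TPC1, 9578, 10727 and 9572 in those of D11, 13306, 10824 and 10890 in those of WB1 and 9901, 10298 and 10553 in those of TD5. The WB1 libraries were above those of TPC1 (log2 fold change 0.32, adjusted p = 0.01, limma), and D11 and TD5 overlapped with TPC1 and did not pass. HMGB2, a DNA-bending protein and the most abundant of the group per kilobase, had 2418, 1965 and 2451 scaled reads in the libraries of TPC1, 2456, 2870 and 2900 in those of D11, 3182, 2770 and 2720 in those of WB1 and 2399, 2727 and 3005 in those of TD5. It rose in D11 and WB1 (0.27 and 0.34, adjusted p = 0.042 and 0.014), and in D11 its lowest library was only just above the highest of TPC1. TMPO, which anchors chromatin to the nuclear lamina between divisions, had the largest rise among the members in TD5 (log2 fold change 0.53, adjusted p = 0.0013) and also rose in D11 (0.36) and WB1 (0.33). CDCA2, which guides a phosphatase to chromosomes late in mitosis, rose in WB1 and TD5 (0.29 and 0.35).

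Of the 6 genes of the centromere and kinetochore, 2 rose in D11, 5 in WB1 and 3 in TD5. NUF2 and NDC80 encode partners in the complex that grips spindle microtubules. NUF2 (chromosome 1, 163266576 to 163355764 of GRCh38, plus strand) had 804, 680 and 756 scaled reads in the libraries of TPC1, 850, 1171 and 1044 in those of D11, 1282, 1239 and 921 in those of WB1 and 797, 928 and 1096 in those of TD5. D11 and WB1 did not overlap with TPC1, and TD5 overlapped through 1 library. The log2 fold change was 0.43 for D11 (SE 0.13, limma adjusted p = 0.02), 0.59 for WB1 (adjusted p = 0.0036) and 0.32 for TD5 (adjusted p = 0.13). NDC80 passed in TD5 and WB1 (0.37 and 0.33) but not in D11 (0.18).

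CENPF, a large kinetochore protein that accumulates in G2, had 7376, 6307 and 6443 scaled reads in the libraries of TPC1, 7172, 9703 and 8182 in those of D11, 9928, 11067 and 8285 in those of WB1 and 7356, 7682 and 8269 in those of TD5. Only the WB1 libraries were all above TPC1. It passed in D11 and WB1 (log2 fold change 0.31 and 0.53, adjusted p = 0.032 and 0.0015, limma) and not in TD5 (0.21). CENPA, the histone that marks centromeres, and HJURP, the chaperone that deposits it, both rose in WB1 (0.33 and 0.36) and in TD5 (0.38 and 0.40), and neither passed in D11 (0.09 and 0.12). CENPE, a kinesin that moves chromosomes to the spindle equator and the member with the lowest level per kilobase, had 1188, 848 and 1271 scaled reads in the libraries of TPC1, 914, 1288 and 1086 in those of D11, 1417, 1384 and 925 in those of WB1 and 945, 1135 and 1301 in those of TD5. All lines overlapped, and its SE of 0.17 was the largest of the members in each comparison.

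Of the 4 genes of the checkpoint and the anaphase-promoting complex, 1 rose and 1 fell in D11, and 2 rose in WB1 and in TD5. BUB1 and TTK are kinases that signal from unattached kinetochores. TTK rose in all 3 clones, with log2 fold changes of 0.35, 0.50 and 0.42 (adjusted p = 0.041, 0.0068 and 0.036, limma), and BUB1 rose in WB1 and TD5 (0.31 in each, adjusted p = 0.0045 and 0.01). CDC20, the activator of the anaphase-promoting complex that the checkpoint holds back (chromosome 1, 43358981 to 43363203 of GRCh38, plus strand), had 6792, 6472 and 7893 scaled reads in the libraries of TPC1, 5496, 5520 and 4936 in those of D11, 6646, 5435 and 5683 in those of WB1 and 6209, 7903 and 6037 in those of TD5. It was the most abundant member per kilobase. All D11 libraries were below TPC1, and WB1 and TD5 overlapped with it. CDC20 had the lowest log2 fold change of all members in each clone, -0.40 for D11 (SE 0.10, limma adjusted p = 0.0062), -0.25 for WB1 (adjusted p = 0.061) and -0.08 for TD5 (adjusted p = 0.68). CDC20 did pass as lower in WB1 under 6 alternatives, with 2 lines in the fit, with median-of-ratios scaling, or without TPC1 replicate 2, WB1 replicate 1, TD5 replicate 2 or TD5 replicate 3. UBE2C, the ubiquitin-conjugating enzyme of the same complex, did not pass in any clone (0.02, 0.23 and 0.33).

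The chromosomal passenger complex corrects faulty attachments, and 0 of its 3 members passed against TPC1 in any clone, beside 19.9%, 18.6% and 5.32% of all genes that were higher in D11, WB1 and TD5. A list of 3 genes is too short to be set apart from these shares. BIRC5 (survivin) had 3241, 2946 and 3106 scaled reads in the libraries of TPC1, 2966, 3061 and 2741 in those of D11, 3123, 2935 and 2863 in those of WB1 and 3122, 3324 and 3121 in those of TD5. All lines overlapped with TPC1. AURKB, the kinase of the complex, and CDCA8 (borealin), which binds it to chromatin, had log2 fold changes between -0.09 and 0.24, and CDCA8 in TD5 was the member with an unadjusted p under 0.05 (0.0123; adjusted p = 0.079, limma). By voom on the estimated reads the count was also 0 in each clone, whereas after the GC correction CDCA8 was higher in TD5. INCENP, the scaffold of the complex and no member, was named after its values were seen and passed in TD5 (log2 fold change 0.39, adjusted p = 0.0093).

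Of the 11 spindle genes, 4 rose in D11, 7 in WB1 and 6 in TD5. CKAP2L, a protein of the spindle poles and microtubules (chromosome 2, 112736349 to 112764664 of GRCh38, minus strand), had 1198, 973 and 1080 scaled reads in the libraries of TPC1, 1442, 1536 and 1482 in those of D11, 1838, 1529 and 1547 in those of WB1 and 1412, 1503 and 1539 in those of TD5. No clone library overlapped with TPC1, and the clones overlapped with one another. It had the largest rise among the members in D11 (log2 fold change 0.45, SE 0.08, adjusted p = 0.00084, limma). In WB1 it rose by 0.59 (adjusted p = 0.0001), just over 1.5-fold, and in TD5 by 0.45 (adjusted p = 0.0017). Its paralog CKAP2 rose by 0.28, 0.44 and 0.35.

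TPX2, which activates AURKA on the spindle and is the most abundant of these genes per kilobase, had 6609, 6010 and 6860 scaled reads in the libraries of TPC1, 6223, 6362 and 5774 in those of D11, 7605, 6211 and 6567 in those of WB1 and 7814, 8165 and 7213 in those of TD5. Only TD5 was above all TPC1 libraries (log2 fold change 0.25, adjusted p = 0.036, limma). TACC3, which crosslinks kinetochore fibres, also passed in TD5 alone (0.29, adjusted p = 0.035). The kinesin KIF11, which pushes the spindle poles apart, passed in D11 and WB1 (0.34 and 0.38, adjusted p = 0.029 and 0.018), whereas KIF2C, a kinesin that disassembles microtubules, did not pass against TPC1 in any clone (-0.16, 0.10 and 0.23). DLGAP5 and GTSE1, which stabilize spindle microtubules, passed in WB1 (0.41 and 0.34) and TD5 (0.34 and 0.39). HMMR passed in D11 and WB1 (0.39 and 0.42), NUSAP1 in WB1 alone (0.31) and PSRC1 in 0 clones.

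Of the 4 genes of cytokinesis, 1 rose in D11, 2 in WB1 and 1 in TD5. ANLN, a scaffold of the contractile ring, had 9996, 8111 and 8885 scaled reads in the libraries of TPC1, 9396, 10385 and 9315 in those of D11, 12470, 10491 and 10009 in those of WB1 and 9443, 10394 and 10726 in those of TD5. WB1 alone did not overlap with TPC1, by a narrow margin (log2 fold change 0.29, adjusted p = 0.017, limma). KIF23, a motor of the central spindle, rose in WB1 and TD5 (0.40 and 0.34, adjusted p = 0.0018 and 0.011). ECT2, which activates RhoA at the division plane, passed in D11 (0.32, adjusted p = 0.022) and not in WB1 (0.27, adjusted p = 0.052). KIF20B did not pass in any clone.

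Between the clones, TD5 and D11 had the most members past the test. In TD5 14 members were higher than in D11 and 0 lower, where 8.43% of all genes were higher and 14.8% lower. PLK1 showed the largest difference, with no overlap of the 3 libraries of each line and a log2 fold change of 0.58 (SE 0.09, adjusted p = 0.00018, limma). GTSE1 (0.42), PSRC1 (0.41) and KIF2C (0.39) followed, and CDC20, with all TD5 libraries above those of D11, differed by 0.33 (adjusted p = 0.024). AURKA (0.27), CDC25C (0.34) and TPX2 (0.34) were also higher in TD5. The 14 were completed by CDCA3, CDCA8, CENPA, NCAPD2, TACC3 and UBE2C. HMMR had the lowest log2 fold change, -0.24, which did not pass. With 1.5-fold required 0 members were called, beside 3.99% of all genes, and PLK1 stood just below that threshold. In these lines the same replicate numbers deviated together, and with the replicate number as a block NCAPD2, CDCA3 and UBE2C did not pass while HJURP did. The number of higher members was 10 without TD5 replicate 1, 8 without D11 replicate 1, 7 without D11 replicate 3 and 6 without TD5 replicate 2, and GTSE1, KIF2C, PLK1, PSRC1 and TPX2 passed whichever library was left out. At an unadjusted p under 0.05, 0 members were lower in TD5 than in D11, and 0 were lower by voom.

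Against D11, WB1 was higher for PLK1 (0.42, adjusted p = 0.0048, limma), GTSE1 (0.36, adjusted p = 0.014) and DLGAP5 (0.29, adjusted p = 0.035) and lower for 0 members, where 4.65% of all genes were higher and 3.42% lower. The lowest value was that of ECT2, -0.05, which did not pass, and 0 members were lower at an unadjusted p under 0.05 or by voom. With 1.5-fold required 0 members were called, beside 2.85% of all genes. The count of 3 fell to 1 without WB1 replicate 1 or D11 replicate 3 and reached 6 without TD5 replicate 3 and 5 without WB1 replicate 2, and PLK1 passed in each of these fits. TD5 and WB1 differed in 0 members by limma, beside 4.52% of all genes higher in TD5 and 9.12% lower, and 0 were called at 1.5-fold, beside 2.33%. Their extremes were TMPO (0.20) and CENPF (-0.32, adjusted p = 0.0501). Without TD5 replicate 3, 1 member was higher and 5 lower in TD5, and without WB1 replicate 3 4 were lower. At an unadjusted p under 0.05, 2 members were higher and 4 lower in TD5 than in WB1, and voom on the estimated reads gave 0.

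The order of the members by fold change followed the GC content of their transcripts. Over the 43 genes GC content ranged from 34.3% to 57.8% with a median of 42.1%. Pearson's r between GC content and log2 fold change was -0.82 in D11, -0.66 in WB1 and -0.20 in TD5 against TPC1, and 0.80 for TD5 against D11. The points are genes measured in the same libraries and are no independent replicates. The same relation was seen over the 15879 tested genes with a GC content, where r was -0.41, -0.39, -0.08 and 0.37. In D11, 13 of the 21 members below the median GC content were higher and 0 of the other 22, with median log2 fold changes of 0.30 and -0.06. In WB1, 17 of the 21 and 8 of the other 22 were higher. In TD5 the numbers were 10 and 8, with medians of 0.32 and 0.25. All 14 members that were higher in TD5 than in D11 were among the 22 at or above the median GC content. CDC20 and PLK1, which fell in D11, hold 56.9% and 57.1% GC.

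When the trend of each library with GC content over all genes was removed, the number of higher members was 1 in D11 (CKAP2L), 19 in WB1 and 25 in TD5, and CDC20 was still lower in D11. Of all 16027 genes tested, 2457 were then higher and 1373 lower in D11. In WB1 2612 were higher and in TD5 1301. The median log2 fold changes of the members were 0.03, 0.22 and 0.27 under this correction. Between the clones, 20 members were higher in TD5 than in D11, of which 10 were among the 14 without the correction (NCAPD2, CDCA3, CDC20 and UBE2C no longer passed), 8 higher in WB1 than in D11 and 2 higher in TD5 than in WB1. Of all 16027 genes tested, 1133 were then higher in TD5 than in D11. For WB1 against D11 the number was 897, and for TD5 against WB1 647. The rise of the members in TD5 against TPC1 thus kept its size under this correction, whereas that in D11 fell to near 0. How far the trend with GC content reflects the libraries or the cells was not tested.

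Mitosis genes outside the list were counted in the same way. Of 56 other mitosis genes, 15 were higher and 6 lower in D11, 31 higher and 4 lower in WB1, and 21 higher and 1 lower in TD5, with median log2 fold changes of 0.12, 0.27 and 0.22. The shares of all genes tested that were higher and lower were 19.9% and 13.4% for D11, 18.6% and 12.3% for WB1, and 5.32% and 6.57% for TD5. The GC correction left 4 of the list higher and 3 lower for D11, 25 and 0 for WB1, and 24 and 1 for TD5. Of all 16027 genes, 2457 were then higher and 1373 lower for D11, 2612 and 1513 for WB1, and 1301 and 1374 for TD5. Among the 56 genes were the mitotic cyclins. CCNB1, the cyclin that binds CDK1 in mitosis, had 5434, 5324 and 5531 scaled reads in the libraries of TPC1, 5091, 5036 and 4651 in those of D11, 6719, 5975 and 6048 in those of WB1 and 6371, 6696 and 6013 in those of TD5. Thus WB1 and TD5 were above TPC1 (log2 fold change 0.20 and 0.23, adjusted p = 0.019 and 0.021, limma), and D11 was below it without passing the test (-0.14, adjusted p = 0.079). CCNA2, the cyclin of S phase and G2, rose in all 3 clones, by 0.27, 0.36 and 0.47 (adjusted p = 0.037, 0.01 and 0.0039). CCNB2 passed in WB1 alone (0.24, adjusted p = 0.015). CDKN3, a phosphatase that acts on CDK1 and CDK2, was the called gene of this list, with 609, 469 and 596 scaled reads in TPC1 and 929, 953 and 750 in WB1 (log2 fold change 0.64, adjusted p = 0.0012).

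The regulators of these genes include the subunits of MuvB and the E2F factors. Of 24 such genes, 13 were higher and 2 lower for D11, 6 higher and 4 lower for WB1, and 2 higher and 1 lower for TD5, beside 19.9% and 13.4%, 18.6% and 12.3%, and 5.32% and 6.57% of all genes. FOXM1, the activator of G2/M genes, had 4015, 3765 and 3811 scaled reads in the libraries of TPC1, 3721, 3799 and 3633 in those of D11, 4478, 3870 and 4230 in those of WB1 and 3798, 4379 and 3749 in those of TD5. All clones overlapped with TPC1 and 0 passed. MYBL2, its partner on MuvB, fell by 0.25 in D11 and by 0.43 in WB1 on the log2 scale (adjusted p = 0.028 and 0.0012, limma) and stood at 0.04 in TD5. It holds 60.0% GC, and after the GC correction 0 of the 24 genes were lower in D11. Its difference in D11 also did not pass without the filter on low values, without the mean-variance trend, or without TPC1 replicate 1, TPC1 replicate 3, D11 replicate 1 or D11 replicate 3. LIN54, the subunit of MuvB that reads the CHR, rose in all 3 clones, by 0.58, 0.63 and 0.37 (adjusted p = 0.0019, 0.00098 and 0.045), and LIN9, another subunit, rose in D11 (0.66, adjusted p = 0.0068).

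E2F7 and E2F1 changed in opposite directions in WB1. E2F7, a repressor of the G1/S programme, had 904, 907 and 793 scaled reads in the libraries of TPC1, 1574, 1622 and 1743 in those of D11, 1261, 1287 and 1352 in those of WB1 and 1276, 981 and 1194 in those of TD5. All clone libraries were above TPC1, and the D11 libraries were above those of the other clones (log2 fold change 0.91, 0.57 and 0.39, adjusted p = 1.7e-06, 0.0002 and 0.0068, limma). E2F1, an activator of S phase genes, had 692, 572 and 647 scaled reads in TPC1 and 409, 392 and 385 in WB1 (-0.66, adjusted p = 0.00011), and did not pass in D11 or TD5.

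Genes of S phase, the phase before G2, give the comparison with another part of the cycle. Of 43 S phase genes, 25 were higher and 0 lower in D11, 3 higher and 13 lower in WB1, and 0 higher and 1 lower in TD5, with median log2 fold changes of 0.25, -0.12 and 0.03. The members had medians of 0.12, 0.31 and 0.27 in the same comparisons. Between WB1 and D11, 0 S phase genes were higher and 29 lower in WB1 (median -0.40), where 3 members were higher and 0 lower (median 0.16). Between TD5 and D11, 17 S phase genes were lower and 0 higher (median -0.23), where 14 members were higher (median 0.17). Of all genes tested, 4.65% were higher and 3.42% lower in WB1 than in D11, and 8.43% and 14.8% in TD5 than in D11. S phase genes took 0.313% to 0.371% of the TPC1 libraries, 0.389% to 0.416% in D11, 0.289% to 0.342% in WB1 and 0.346% to 0.357% in TD5. D11 thus had the highest mean S phase share and the lowest mean G2/M share of the clones, and WB1 the lowest mean S phase share and the highest mean G2/M share. The place of WB1 by G2/M share rests on its replicate 1 (0.837%). Its other libraries had 0.721% and 0.687%, where the mean of TD5 was 0.732%. After removal of the GC trend 16 S phase genes were higher in D11, beside 1 member and 2457 of all 16027 genes tested. No test compared the lists with each other.

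Some members share their locus with other genes. In 19 of the 43, a gene of the other strand overlaps, and CENPA and NUSAP1 overlap genes of the same strand with 2182 and 2664 scaled reads on average. How reads in such overlaps were assigned was not tested. Rows of pseudogenes named after members were at most 3.83 scaled reads on average.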

How the data were processed

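Total RNA was prepared by the authors as stranded mRNA libraries and sequenced in pairs. They mapped reads with STAR 2.5.3a to GRCh38, assigned them to genes of Ensembl release 90 with HTSeq 0.9.1 and brought every library to a common 20000000 reads. These deposited values, rounded up, were treated as a score and not as reads, so the count test the authors used was not applied. Values per 1000000 of the library sum were fitted as log2(value + 1) with limma 3.58.1 (R 4.3.3), with a mean-variance trend and all 12 libraries in the fit, each line having its own mean. A gene was tested if 3 or more libraries had a value of 1 per 1000000 or higher. P-values were adjusted by Benjamini-Hochberg over all 16027 genes tested. Libraries were grouped by their titles. GC content, length and gene positions came from Gencode release 44, and GC trends were removed by lowess (span 0.3). The main fit was tried on simulated reads for WB1 against TPC1. The simulation held no GC trend and no shift of a list within a library, so it does not cover these.

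Values in every library were given for members called in any comparison, the most abundant per kilobase in each role group, CDK1, PLK1, AURKA, MKI67, TOP2A, and the members with the lowest level. The largest rise and fall in each comparison, the genes of the lists of other mitosis genes and regulators that were called against TPC1, CCNA2, CCNB1, CCNB2, FOXM1 and MYBL2 were also named. Further members were named after their values were seen. The members and lists were chosen with earlier results of these data known.

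Same-numbered libraries of D11 and TD5 deviated together (correlations of deviations from the line means 0.11, 0.17 and 0.35), which was not so for any other pair of lines. That libraries were matched by number is not stated in the sources used here. The replicate block was fitted over all 12 libraries with the same replicate effects in every line, so it is no paired test of D11 and TD5. The fit without the block was kept as the main one for all comparisons. Alternatives covered the pseudocount, filter, trend, scaling, GC and length corrections, voom on estimated reads, the replicate block and leaving out each library. Other steps ran in Python 3.11.15 (pandas 2.3.3, numpy 2.4.6, scipy 1.17.1), and plots were drawn with matplotlib 3.10.9.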

Additional observations from a re-analysis of the deposited data

Results flagged for a closer look

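The change against TPC1 differed between clones for several members, by the test of the difference between the clones themselves (limma, adjusted over all genes tested). Between WB1 and D11 the log2 difference was 0.42 for PLK1, 0.36 for GTSE1 and 0.29 for DLGAP5. Between TD5 and D11 it was 0.58 for PLK1, 0.42 for GTSE1, 0.41 for PSRC1, 0.39 for KIF2C, 0.34 for CDC25C and TPX2, 0.33 for CDC20, CDCA8 and TACC3, 0.31 for UBE2C, 0.28 for CENPA, 0.27 for AURKA, 0.26 for CDCA3 and 0.19 for NCAPD2. All of these were lower in D11. Each line is 1 clone, so differences between clones and effects of the deletion cannot be told apart. Between TD5 and D11, NCAPD2, CDCA3 and UBE2C did not pass with the replicate number as a block, and these and CDC20 did not pass after the GC correction. DICER1 was lower in TD5 than in D11 (-0.58) and than in WB1 (-0.34).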

How the results depend on the processing

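Each mutant line is a single clone, the libraries of a line may be technical replicates, and counting error is small for genes of this abundance. The counts of members in this part are given without those of all genes tested under the same settings. The number of members past the test in D11 was 5 without a filter, 6 without a trend, 8 with median-of-ratios scaling, 2 with the GC correction and 3 with the GC correction and the replicate block. In TD5 it was 9 without a filter and 9 without a trend, as it was for TD5 against D11. For WB1 against D11 it was 5 with 2 lines in the fit, 8 with the GC correction and 6 with the block added. For TD5 against WB1 it was 1, 2 and 1 with median-of-ratios scaling, the GC correction and the latter with the block. The members called at 1.5-fold in WB1 were 0 with a pseudocount of 4, median-of-ratios scaling, the GC correction and the latter with the block, while in TD5 against D11 they were 1 (PLK1) with a pseudocount of 0.1, median-of-ratios scaling and voom. With the GC correction, 2 members had all clone libraries on 1 side of TPC1. DICER1 passed in D11 at -0.25 (median-of-ratios scaling), -0.36 (GC correction, with or without the block) and -0.30 (length correction). Without the GC correction, the replicate block gave 10 members in D11, 25 in WB1, 15 in TD5, 2 for WB1 against D11 and 12 for TD5 against D11. Where same-numbered libraries of the lines did not deviate together, a lower count under the block is no sign of a weaker effect. The cause of these changes was not tested, other than that a filter changes the genes tested.

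Leaving out each library in turn, the number past the test was 5 to 17 in D11, 15 to 28 in WB1, 7 to 21 in TD5, 1 to 6 for WB1 against D11, 6 to 16 for TD5 against D11 and 0 to 6 for TD5 against WB1. Those called at 1.5-fold were 0 to 5 in WB1, 0 to 1 in TD5 and 0 to 1 for TD5 against D11, and 10 to 21 members had all clone libraries on 1 side of TPC1, 21 of them without TPC1 replicate 1. Median log2 fold changes were 0.06 to 0.18 in D11, 0.22 to 0.37 in WB1 and 0.20 to 0.33 in TD5.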
